A study of Mus musculus with 4 samples.

Results

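The 10 genes described here were read out across lung RNA from C57BL/6J mice: the clock repressors Per1, Per2, Per3, Cry2, Nr1d1, Nr1d2 and Bhlhe41, and the PAR bZIP output factors Dbp, Tef and Hlf. They were chosen by gene name among the non-control probes, with earlier results of these same arrays in view, and are 10 of 27195 named genes and 23 of 56605 probes. The study crossed surgery with an agent, PPE or PBS, giving ORX/PPE, ORX/PBS, sham/PPE and sham/PBS lungs, sampled at 3 weeks per the labels. Each group was 1 Agilent 1-colour array that took RNA pooled from 5 mice, all 4 arrays lay on 1 slide scanned on 1 day, and neither age nor time of day at collection is given in the sources used here. The abbreviations are not spelled out in the labels; ORX is taken here to be orchiectomy and PPE to be porcine pancreatic elastase, from a series title about lack of testosterone in elastase emphysema. Pooling and single arrays leave no replicate spread, so every difference below is between 2 pools, carries no p-value and was not tested, and the small number of arrays limits the precision. Neither surgery nor agent can be told apart from hour of collection in these groups, and group cannot be told apart from array position.

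In the mammalian clock, CLOCK and BMAL1 (the product of Arntl) bind E-boxes and switch on the Per, Cry, Nr1d and Bhlhe41 genes together with Dbp, Tef and Hlf. PER and CRY proteins then hold CLOCK and BMAL1 in check, while the nuclear receptors made from Nr1d1 and Nr1d2 (REV-ERB alpha and beta) silence Arntl. DBP, TEF and HLF bind D-boxes, including those of period genes, and pass the rhythm on to metabolic and detoxifying genes. Transcripts of the repressor arm therefore cycle in lung as in liver, with peaks that fall at different hours for different genes.

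Signals are the processed intensities of the scanner software in arbitrary units, which can be set against each other for 1 probe across arrays but not between probes. Log2 differences were taken after each array's signals were divided by their own 75th percentile, which was 860.9 on ORX/PPE, 999.2 on ORX/PBS, 829.8 on sham/PPE and 852.9 on sham/PBS. The ± after a log2 difference is the software's own error of the spots carried through, which covers the spot and not the mice. That error ran from 10% to 14.8% of the signal, and 300 probes spotted 10 times had a median SD of at most 0.0363 on the log2 scale within an array. All 23 probes were well above background on every array, and none was saturated. The lung markers Sftpc, Sftpb, Sftpa1, Ager, Scgb1a1, Cldn18, Hopx and Foxj1 were above background on all 4 arrays. The sham/PPE array stood apart in transcripts of other organs: 9 cardiac muscle markers summed to 26.5, 53.2, 141 and 65.7 times the 75th percentile on ORX/PPE, ORX/PBS, sham/PPE and sham/PBS, and 4 germ cell markers to 0.123, 0.120, 2.64 and 0.124, with 1 germ cell marker not above background on ORX/PPE. Fat markers, 6 in number, summed to 9.13, 12.1, 24.9 and 9.80 in the same order, with 1 not above background on ORX/PPE and 1 on sham/PBS. Liver markers, also 6, summed to 0.237, 0.432, 1.06 and 0.284, with 2 or 3 of them not above background on each array. Nppa, Myl4, Myl7 and Myh6 made up most of the cardiac sum on sham/PPE. Not every marker followed these sums: Actc1, Ryr2 and Lep were highest on sham/PBS and Apoa1 on ORX/PPE. The comparisons of PPE in ORX mice and of ORX under PBS do not use the sham/PPE array, but cardiac markers differed between the ORX arrays too, with a median of -0.97 for PPE over PBS and 3 of 9 at least 2-fold lower. Between those ORX arrays, 0.369% of all genes were at least 2-fold lower with PPE. The part of these tissues in the results was not tested.

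Promoter sequence was available for 9 of the members, all but Per2, from RefSeq on GRCm38.p6, as the 250 bases before each annotated start. The windows below are shown because they hold the clock motifs of a period gene that went with the other repressors (Per3), of the period gene that stayed within 2-fold in every comparison (Per1), of an output factor (Tef) and of the repressor that parted from the rest (Nr1d1). Capitals mark the E-box CACGTG, its variant CACGTT, or the D-box TTANGTAA, searched on both strands.
Per1 (chr11:69098699-69098948, + strand): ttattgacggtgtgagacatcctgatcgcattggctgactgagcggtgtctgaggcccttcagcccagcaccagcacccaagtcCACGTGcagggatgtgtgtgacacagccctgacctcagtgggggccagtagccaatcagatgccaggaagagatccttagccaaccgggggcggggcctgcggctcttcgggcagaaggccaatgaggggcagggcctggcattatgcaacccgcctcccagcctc
Per3 (chr4:151044666-151044915, - strand): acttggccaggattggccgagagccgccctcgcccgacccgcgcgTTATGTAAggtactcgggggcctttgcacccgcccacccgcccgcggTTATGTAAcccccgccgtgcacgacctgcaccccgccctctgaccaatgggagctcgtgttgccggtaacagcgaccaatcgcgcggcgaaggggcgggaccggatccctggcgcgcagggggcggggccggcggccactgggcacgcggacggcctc
Tef (chr15:81811164-81811413, + strand): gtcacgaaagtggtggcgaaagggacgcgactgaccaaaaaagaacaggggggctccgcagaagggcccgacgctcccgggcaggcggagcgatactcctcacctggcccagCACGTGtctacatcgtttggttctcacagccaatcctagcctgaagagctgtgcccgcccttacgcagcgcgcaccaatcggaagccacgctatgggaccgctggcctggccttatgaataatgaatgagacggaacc
Nr1d1 (chr11:98775378-98775627, - strand): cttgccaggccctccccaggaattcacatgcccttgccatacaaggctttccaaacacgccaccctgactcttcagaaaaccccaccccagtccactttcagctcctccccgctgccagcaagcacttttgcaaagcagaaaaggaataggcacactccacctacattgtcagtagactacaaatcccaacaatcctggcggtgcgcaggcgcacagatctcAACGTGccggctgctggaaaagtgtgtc

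Per3 carried the D-box in 2 places, 205 to 198 and 158 to 151 bases before its start, and no other member had it in its window. D-box letters occurred in 2.06% of all 32851 windows of this length. CACGTG lay in windows of Per1, Tef and Bhlhe41, 3 of 9 members, against 6.86% of 27025 genes with a window. Nr1d1 and Cry2 held the variant CACGTT, which 3.85% of all windows hold, and both windows of Tef held CACGTG. A cyclic AMP response element, TGACGTCA, lay 9 to 2 bases before the start of Hlf and in 1.55% of windows. AGGTCA, the core that Nr1d and Ror receptors recognise, was present for Per1 and Nr1d2 and in 14.0% of windows, and no match overlapped another. Dbp had none of these 5 motifs in its window. These matches describe letters only and were not tied to the signals.

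Per2, a period repressor that pairs with CRY proteins, had signals of 5624 on ORX/PPE, 6626 on ORX/PBS, 2316 on sham/PPE and 2160 on sham/PBS from its brightest probe (mm9 chromosome 1, 93312595 to 93312654). Both ORX arrays lay above both sham arrays, and by this probe the PPE and PBS arrays of each surgery were close. The ORX difference was 1.39 ± 0.20 under PBS and 1.23 ± 0.20 under PPE, whereas the PPE difference was 0.14 ± 0.20 in sham and -0.02 ± 0.20 in ORX mice. The dim second probe (93336538 to 93336597) read 51.0, 42.7, 33.6 and 23.1 in the same order of arrays, again with ORX above sham, and its ORX differences were 0.66 under PBS and 0.55 under PPE. Unlike the bright probe, it put PPE over PBS at 0.58 ± 0.27 in sham and 0.47 ± 0.23 in ORX mice. With background correction by normexp the ORX differences of that dim probe were 0.08 under PBS and 0.04 under PPE, and its PPE differences 0.35 in sham and 0.30 in ORX mice, while the bright one had ORX differences of 1.40 and 1.23.

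Per3, the period gene whose window carries the D-boxes shown above, had signals of 1111 on ORX/PPE, 1338 on ORX/PBS, 672.3 on sham/PPE and 426.4 on sham/PBS (mm9 chromosome 4, 150385608 to 150385667). It too was highest in ORX lungs, but unlike Per2 it also stood higher on sham/PPE than on sham/PBS. Its ORX difference was 1.42 ± 0.20 under PBS and 0.67 ± 0.20 under PPE, and its PPE difference was 0.70 ± 0.20 in sham and -0.05 ± 0.20 in ORX mice. Of the other 2 Per3 probes, A_55_P2752088 put ORX over sham at 1.32 under PBS and 0.98 under PPE, and A_66_P135046 at 1.12 and 0.96. They put PPE over PBS in sham mice at 0.36 and 0.30, so the size of that step depended on the probe.

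Per1, the period gene that light, cyclic AMP and glucocorticoids induce acutely, behaved differently. Its bright probe gave 20418 on ORX/PPE, 17870 on ORX/PBS, 14417 on sham/PPE and 15058 on sham/PBS (mm9 chromosome 11, 68923364 to 68923423). After scaling, ORX/PPE alone stood apart, at 23.7 times the 75th percentile, with 17.9, 17.4 and 17.7 on ORX/PBS, sham/PPE and sham/PBS. PPE over PBS was 0.41 ± 0.20 in ORX mice and -0.02 ± 0.20 in sham mice, and ORX over sham was 0.45 ± 0.20 under PPE and 0.02 ± 0.20 under PBS. None of its values reached 2-fold. The dim second probe of Per1 read 37.1, 28.5, 23.0 and 32.4, with ORX/PPE highest and sham/PPE lowest.

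Cry2, the cryptochrome repressor among the members, spanned the narrowest range over the 4 arrays, with Per1 next to it. Its bright probe gave 11867 on ORX/PPE, 13060 on ORX/PBS, 8736 on sham/PPE and 8633 on sham/PBS (mm9 chromosome 2, 92243807 to 92243866). ORX over sham was 0.37 ± 0.20 under PBS and 0.39 ± 0.20 under PPE by that probe, and its other 2 probes gave -0.02 and 0.09 under PBS and 0.36 and 0.40 under PPE. All 3 probes thus put ORX higher under PPE by a similar amount, while under PBS only the brightest did so by more than the spot error.

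Nr1d2, which encodes REV-ERB beta, had signals of 6099 on ORX/PPE, 6816 on ORX/PBS, 4260 on sham/PPE and 2728 on sham/PBS (mm9 chromosome 14, 19036568 to 19036627). The ORX arrays were high, sham/PPE was intermediate and sham/PBS was low, much as for Per3. ORX over sham was 1.09 ± 0.20 under PBS and 0.46 ± 0.20 under PPE, and PPE over PBS was 0.68 ± 0.20 in sham and 0.05 ± 0.20 in ORX mice. Its other 2 probes gave 1.15 and 0.96 for ORX under PBS and 0.74 and 0.51 for PPE in sham mice.

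Nr1d1, which encodes REV-ERB alpha and is the main brake on Arntl, differed from its paralog in the ORX comparisons but not, beyond the spot error, for PPE in sham mice. Its signal was 607.7 on ORX/PPE, 837.2 on ORX/PBS, 1328 on sham/PPE and 760.0 on sham/PBS. The sham/PPE array was the high one and ORX/PPE the lowest, with the PBS arrays of both surgeries close to each other. The sham/PPE array also had the highest sums of cardiac, fat and germ cell markers, and ORX/PPE the lowest cardiac sum. The part of these tissues in the Nr1d1 values was not tested. PPE over PBS was 0.85 ± 0.20 in sham mice and -0.25 ± 0.20 in ORX mice. ORX lungs stood 2.27-fold lower than sham lungs under PPE, at -1.18 ± 0.20, and under PBS the difference of -0.09 ± 0.20 was smaller than its spot error and turned to 0.14 without scaling between arrays. These values rest on a single probe, whose match spans 503 bases of mm9 chromosome 11 (98630526 to 98631028, - strand) for a probe of 60 bases. It is shown because no other probe checks it.
Nr1d1 probe A_51_P223776: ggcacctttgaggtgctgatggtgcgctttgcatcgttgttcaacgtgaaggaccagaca

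Among the output factors, Dbp spanned the widest range of the 10 genes. Its brightest probe gave 13221 on ORX/PPE, 17607 on ORX/PBS, 10130 on sham/PPE and 3397 on sham/PBS (mm9 chromosome 7, 52965265 to 52965324). The sham/PBS array was the low one and the other 3 lay well above it. ORX over sham was 2.15 ± 0.20 under PBS, or 4.42-fold, but 0.33 ± 0.20 under PPE. PPE over PBS was 1.62 ± 0.20 in sham mice, or 3.07-fold, and -0.20 ± 0.20 in ORX mice. A second Dbp probe gave 10858, 15239, 7657 and 2449 in the same order of arrays, hence 2.41 and 0.45 for ORX and 1.68 and -0.27 for PPE.

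Tef and Hlf, the other PAR bZIP factors, also had both ORX arrays high and sham/PBS low, over a narrower range than Dbp. Tef gave 49928 on ORX/PPE, 59098 on ORX/PBS, 30402 on sham/PPE and 22318 on sham/PBS (mm9 chromosome 15, 81657221 to 81657280). Its ORX difference was 1.18 ± 0.20 under PBS and 0.66 ± 0.20 under PPE, and PPE over PBS was 0.49 ± 0.20 in sham and -0.03 ± 0.20 in ORX mice. Across all 4 Tef probes the ORX difference ran from 0.56 to 1.21 under PBS and from 0.55 to 0.66 under PPE, so agreement was closer under PPE. ORX/PPE was the highest array for 2 of the 4 Tef probes and ORX/PBS for the other 2. Hlf, with 1 probe (mm9 chromosome 11, 90201236 to 90201295), gave 585.2 on ORX/PPE, 715.0 on ORX/PBS, 304.9 on sham/PPE and 217.1 on sham/PBS. ORX stood 2.81-fold higher under PBS and 1.85-fold higher under PPE, and PPE over PBS was 0.53 ± 0.20 in sham and -0.07 ± 0.20 in ORX mice.

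Bhlhe41 (DEC2), a basic helix-loop-helix repressor that competes for E-boxes, was dim throughout. The brighter of its probes gave 57.3 on ORX/PPE, 67.3 on ORX/PBS, 36.9 on sham/PPE and 37.2 on sham/PBS (mm9 chromosome 6, 145806764 to 145806823). Its ORX difference was 0.63 ± 0.23 under PBS and 0.58 ± 0.23 under PPE. The other probe read 52.7, 55.3, 40.2 and 19.1, which made PPE over PBS in sham mice 1.12 where the first gave 0.03. With normexp the ORX differences of the brighter probe were 0.23 and 0.08, so little can be read from this gene.

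**Figure D1:**
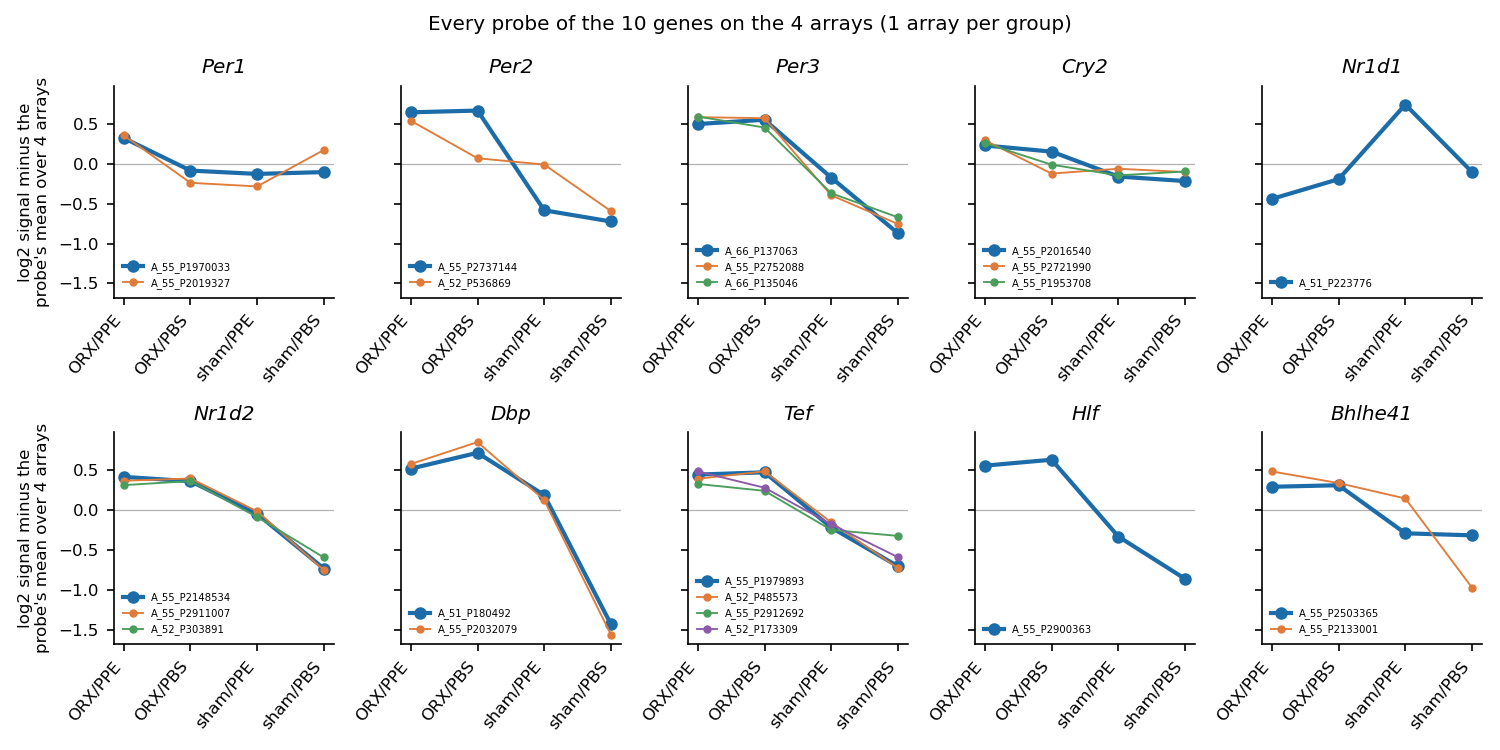
Each panel shows a member, with a line for every probe and the brightest probe drawn thick; the y axis is the log2 signal after 75th percentile scaling minus that probe's mean over the 4 arrays, and the x axis gives the 4 arrays. Both ORX arrays lie above both sham arrays for 20 of 23 probes, and the Nr1d1 probe peaks on sham/PPE.

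Counted by brightest probe, 9 of the 10 genes stood higher on both ORX arrays than on both sham arrays, and Nr1d1 was lower on both. Among 19320 genes above background on all arrays, 18.5% had both ORX arrays above both sham arrays and 21.5% had both below. The margin was thin for Per1 (0.02 between ORX/PBS and sham/PBS) and for Nr1d1 (-0.09 between the same arrays), both within the spot error. By probe the count was 20 of 23, against 18.1% of 38638 probes, the exceptions being the dim Per1 probe, A_55_P2721990 of Cry2 and the Nr1d1 probe. The 6 members Per2, Per3, Dbp, Tef, Hlf and Bhlhe41, ran in the order ORX/PBS, ORX/PPE, sham/PPE, sham/PBS from high to low, an order shown by 5.73% of genes. The step between the pair of ORX arrays was within the spot error for all 6 by brightest probe. The second Dbp probe, at -0.27 ± 0.20 for PPE over PBS, lay beyond it, in the direction of the brightest Dbp probe. By probe, ORX/PPE was the highest array for 12 of 23 and ORX/PBS for 10, so the order of those arrays was not resolved for the members as a set. Sham/PBS was the lowest array for 8 of 10, against 31.3% of genes, and 7 of 10 spanned at least 2-fold, against 4.18%. The step between the sham arrays was within the spot error for Per2 (0.14), Cry2 (0.06) and Bhlhe41 (0.03). For these genes the order of the sham arrays was not resolved either. Nr1d1 alone had sham/PPE highest and ORX/PPE lowest, as did 9.65% of genes. Since the genes were picked with such results known, these shares are given for scale and nothing further is read from them.

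In the comparison of ORX with sham under PBS, 6 of 10 members were at least 2-fold higher and 0 lower, against 0.585% and 1.26% of 21205 genes. Those 6 were Dbp, Hlf, Per3, Per2, Tef and Nr1d2, and the members' median was 1.13 where that of all genes was -0.01. Under PPE, 1 member (Per2) was at least 2-fold higher and 1 (Nr1d1) lower, against 0.322% and 1.41% of 20780 genes, with a median of 0.52 against -0.01. At 1.5-fold, 7 members were higher and 0 lower under PBS, against 3.76% and 5.63% of genes, and 4 were higher and 1 lower under PPE, against 2.43% and 4.63%. For Dbp the ORX difference was smaller under PPE, and sham/PPE lay far above sham/PBS. For Per2 it differed between the agents by less than the spot error, and for Per1 it was larger under PPE.

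PPE over PBS in sham mice put 1 member, Dbp, at least 2-fold higher and 0 lower, where 1.26% and 0.451% of 20859 genes were so. The median was 0.51, against 0.02 for all genes. At 1.5-fold, 4 members were higher and 0 lower in sham mice, against 5.05% and 4.1% of genes. In ORX mice 0 members passed 2-fold either way, against 0.695% of 21159 genes higher and 0.369% lower, and the median was -0.03 against 0.00. At 1.5-fold it was still 0, against 3.39% of genes higher and 2.44% lower. The member values there lay between -0.25 for Nr1d1 and 0.41 for Per1, and those of all other members, by brightest probe, were within the spot error. Each comparison of PPE shares an array with each comparison of ORX, so the 4 sets of values are not separate evidence.

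**Figure D2:**
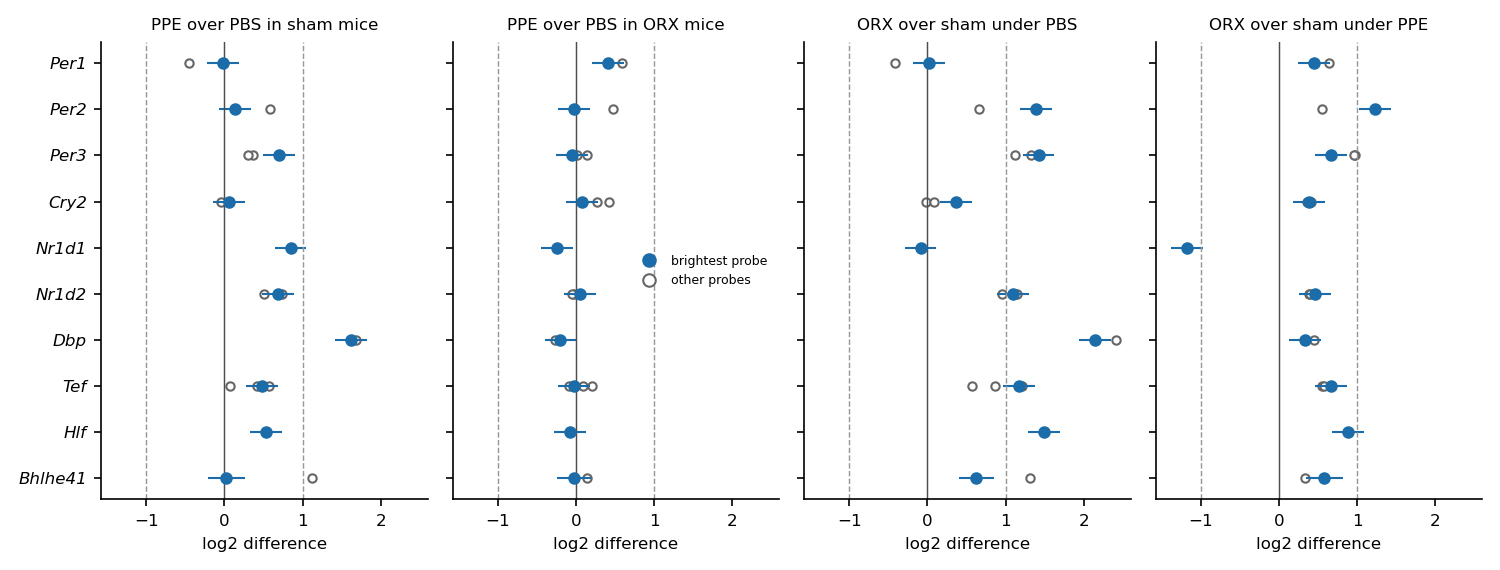
Log2 differences of the 10 members in the 4 comparisons, with the brightest probe filled and other probes open; bars are the scanner software's error of the difference and dashed lines mark 2-fold. Dbp, Hlf, Per3, Per2, Tef and Nr1d2 lie beyond the line for ORX under PBS, and Nr1d1 lies alone on the lower side for ORX under PPE.

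**Figure D3:**
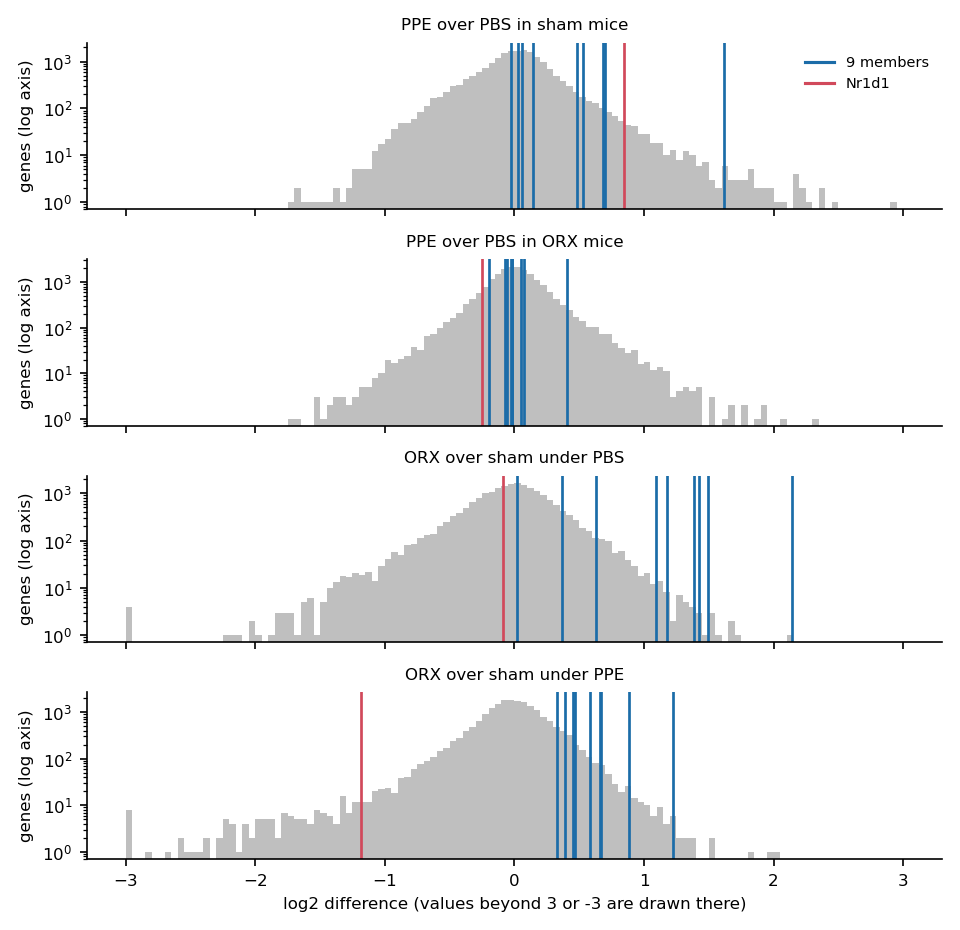
Histograms of log2 differences of all genes above background on both arrays compared, on a log count axis, with blue lines for 9 members and a red line for Nr1d1. For ORX under PBS, 6 blue lines lie beyond 1 on the log2 axis and those of Per1 and Cry2 lie within the bulk, while in ORX mice the PPE differences of all members lie between -0.25 and 0.41.

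The mean of the period genes differed from Nr1d1 by varying amounts and not always in the same direction, and the 3 genes behind that mean did not move alike. The mean difference of Per1, Per2 and Per3 was 0.94 for ORX under PBS, against -0.09 for Nr1d1, a gap of 1.03. Under PPE the gap widened to 1.96, with the period mean at 0.78 and Nr1d1 at -1.18, which is 3.90-fold between them. For PPE in sham mice it ran the other way, at -0.57, with the period mean at 0.27 and Nr1d1 at 0.85, and for PPE in ORX mice it was 0.36. Nr1d2 lay 1.18 above Nr1d1 for ORX under PBS and 1.65 above it under PPE. For PPE in sham mice it was within the spot error of Nr1d1, at a difference of -0.16, and for PPE in ORX mice it lay 0.30 above. Single genes did not all share these gaps. In the sham mice Per3, at 0.70, was close to Nr1d1, for ORX under PBS Per1, at 0.02, lay within the spot error of it, and for PPE in ORX mice Per1, at 0.41, stood apart from Per2 at -0.02 and Per3 at -0.05.

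**Figure D4:**
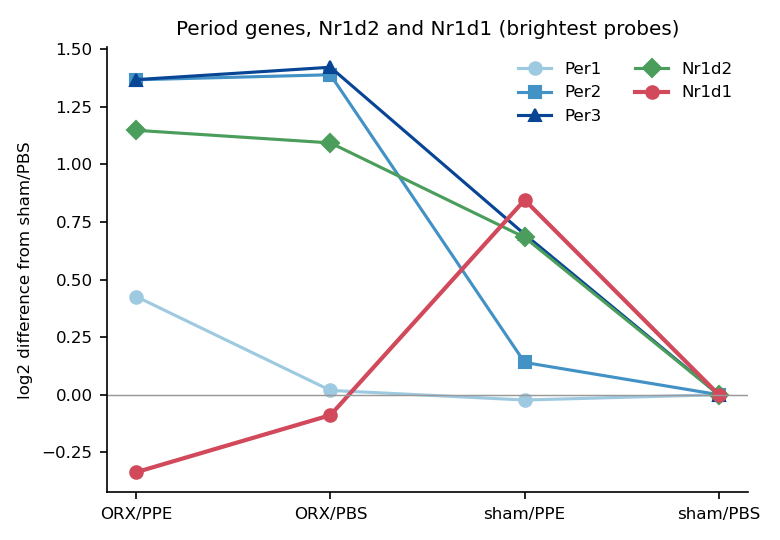
Log2 difference of each array from sham/PBS for Per1, Per2, Per3, Nr1d2 and Nr1d1 by brightest probe, so that sham/PBS is 0 by construction. Nr1d1 is the highest of the 5 genes on sham/PPE and the lowest on both ORX arrays.

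Among themselves, the members' profiles over the 4 arrays were closest for Per3 and Hlf, whose centred log2 values had a root mean square difference of 0.0929. Per3 with Tef followed at 0.0982 and Nr1d2 with Tef at 0.103. Nr1d1 lay farthest from the others, with a median of 0.791 to the other 9 and 1.01 to Per2, and Tef was the most central, with a median of 0.229. These are distances over 4 arrays and carry no test.

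Outside the list, the 5 genes nearest to the mean profile of the period genes, among 800 genes that spanned at least 2-fold, were Tnfrsf13c at 0.0431, Tmem200b at 0.0449, Hpcal4 at 0.0571, Calcr at 0.0765 and Slc14a1 at 0.0836. Nearest to Nr1d1 were Il1f8 at 0.0495, Acsbg2 at 0.0650, Vat1l at 0.0686, Doc2g at 0.0855 and Adprhl1 at 0.0999. Nearest to Dbp were Tex11 at 0.240, Ms4a1 at 0.251, Nr5a2 at 0.252, Cmtm2b at 0.292 and Ear1 at 0.323, none of them close, with 2 genes that have only clone names passed over before Ear1. Of these neighbours, Ms4a1 was among the B and T cell markers used here and Ear1 among those of alveolar macrophages. The 5 genes nearest to Nr1d1 were, like it, highest on sham/PPE, the array with the highest cardiac, fat and germ cell sums. The part of those tissues in this likeness was not tested. B and T cell markers, 6 of them, summed to 22.3 times the 75th percentile on ORX/PPE and 21.3 on ORX/PBS. On sham/PPE their sum was 16.9 and on sham/PBS 11.6. All 6 were above background on every array, and their summed level was higher on both ORX arrays than on both sham arrays. Cd79b and Ms4a1 made up most of that sum, Cd4 ran the other way at -0.15 for ORX under PBS and -0.11 under PPE, and Cd8b1 was at 0.06 under PPE. Neutrophil markers, 6 of them, summed to 72.5, 58.5, 134.5 and 38.6 in the same order of arrays, and 6 alveolar macrophage markers to 122.5, 72.6, 99.1 and 49.6, with sham/PBS lowest in each sum. S100a9 and S100a8 made up most of the neutrophil sum, and Cxcr2 and Marco were lowest on ORX/PBS and Ltf on ORX/PPE. The part of any of these cells in the members' values was not tested, and fewer cells of a type and less RNA per cell cannot be told apart in whole lung RNA.

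Among 10 other core clock genes described here, the activator Arntl stood lower on the ORX arrays. Its brightest probe gave 166.3 on ORX/PPE, 218.9 on ORX/PBS, 558.9 on sham/PPE and 853.4 on sham/PBS, so both ORX arrays were low and sham/PBS was high. ORX over sham was at least 2-fold different for Arntl, Npas2 and Nfil3 under PBS, all 3 lower, with 6 of 9 measured genes within 2-fold. Over all genes, 1.26% were at least 2-fold lower and 0.585% higher in that comparison. Nfil3, whose product competes with the PAR bZIP factors for D-boxes, had 833.5, 690.1, 971.2 and 1525 on the same arrays in that order, opposite to Dbp at its extremes. Under PPE, Cry1 was 1.23 higher and Arntl lower at -1.80, and 6 of 8 were within 2-fold. Arntl probes A_66_P127371 and A_55_P2735445 gave -2.26 and -2.40 for ORX under PBS, but -1.19 and -0.72 under PPE. For PPE in ORX mice they gave 0.39 and 0.79, where the brightest Arntl probe gave -0.18. By their brightest probes, Clock, Rora, Arntl2 and Ciart lay within 1.5-fold in all 4 comparisons, though another Clock probe, A_52_P279391, gave -0.68 for ORX under PBS, and Bhlhe40, the paralog of Bhlhe41, reached 0.44 for ORX under PBS. Npas2 was not above background on either PPE array, so its value for PPE in sham mice is only a bound, counted as at least 2-fold lower, and Rorb was not above background on any array.

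**Figure D5:**
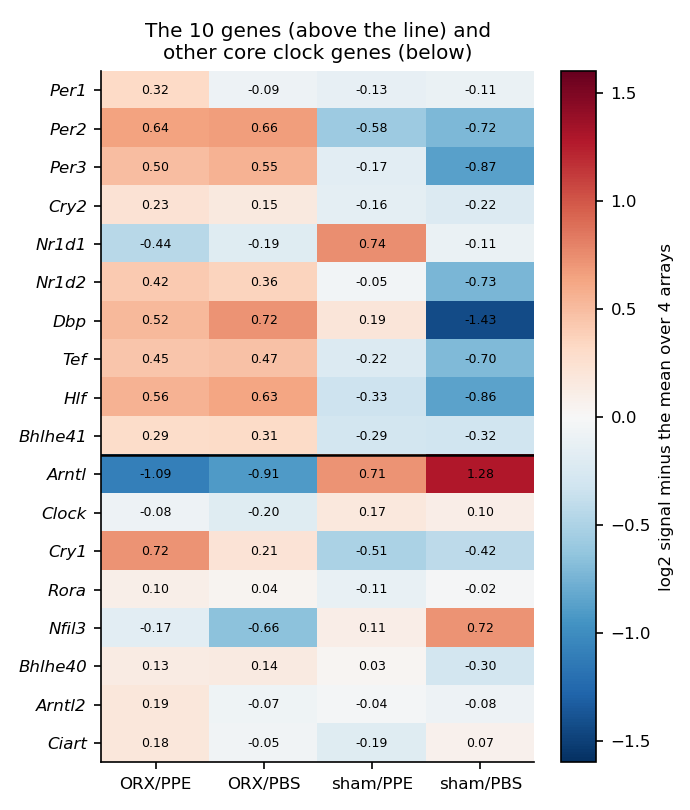
Colour map of the log2 signal of the 10 members (above the line) and of the other core clock genes above background on all arrays (below it), each minus its mean over the 4 arrays, with the value printed in each cell. Arntl runs from -1.09 on ORX/PPE to 1.28 on sham/PBS, and Dbp from -1.43 on sham/PBS to 0.72 on ORX/PBS.

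Of 20 clock-controlled outputs, 2 were at least 2-fold higher for ORX under PBS, Tspan4 at 1.37 and Cys1 at 1.19, and 3 were lower, Cdkn1a at -1.43, Nfil3 at -1.37 and Leo1 at -1.01, with a list median of 0.05 and, over all genes, the shares of 0.585% higher and 1.26% lower given above. In the other 3 comparisons 0 of them passed 2-fold. Wee1, a kinase gene with E-boxes known from mouse liver, was 0.84 higher for ORX under PBS and 0.70 under PPE. All 14 genes of the enzymes that modify clock proteins lay within 2-fold in every comparison, the nearest to it being Usp2 at 0.94 for ORX under PPE. Glucocorticoid-inducible genes, 12 with Per1 among them, had medians of 0.42 for PPE in ORX mice and 0.07 in sham mice, where Per1 stood at 0.41 and -0.02. The median in ORX mice was set by Per1 itself and Errfi1, at 0.44, so the nearness of Per1 to it was built in. Dusp1 at -0.20 and Zbtb16 at -0.11 were lower with PPE in ORX mice, and the rest were higher. For ORX over sham the list's median was -0.28 under PBS and -0.08 under PPE, where Per1 stood at 0.02 and 0.45. In that list Pdk4 was 1.16 higher for PPE among ORX lungs. Under PBS, ORX lungs had Pdk4 at -1.40 and Cdkn1a at -1.43 relative to sham. Immediate early genes, 10 in number, had a median of -0.28 for PPE in ORX mice and -0.02 in sham mice, with Egr1 at -1.24 in ORX mice.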

How the data were processed

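Lung RNA of 4 groups was measured on 1 Agilent array each (design 074809). Per the file headers, Feature Extraction 10.7.1.1 made the deposited processed signals, intensity values on a linear scale after background and spatial detrending, with no scaling between arrays. Version 9.5.1.1 is named per the submitters' processing notes. The marks for background, saturation and outliers are 0 or 1, per the file headers. A series table of intensity, also deposited, states no scale: each column has the median 71.5, and on the log2 scale its r with the scanner values is at least 0.9998, with no sign of gene centring.

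Control spots and 31 to 54 outlier spots per array were left out, spots of a probe were averaged, log2 was taken and the 75th percentile over non-control spots was subtracted. Probes were named through RefSeq (GRCm38.p6), 10293 had no name, and members were taken by the name in the files. The brightest probe stood for a gene. A gene entered a comparison if well above background on at least 1 of its arrays, and a bound stood for the dim side. The threshold was 2-fold, and with 1 array per group there was no test. Members and lists were chosen with earlier results of these data known. The text names all members, other core clock genes (an item of that list is not reported here), list members past 2-fold and the 5 nearest profiles by root mean square difference, passing over clone names. Genes that are no members and were singled out beyond this (Wee1, Usp2) were chosen after their values were seen. The 2-fold call and the search for nearest profiles were tested on simulated gene values, with every gene set above background. Outlier removal, scaling, naming, the choice of probe and the bound for dim genes were not tested in that way. Tools were Python 3.11.15, numpy 2.4.6, pandas 2.3.3, matplotlib 3.10.9 and limma 3.58.1 in R 4.3.3. Alternatives were normexp background correction, quantile normalization, median centring, no scaling, the value table, averaging all probes per gene, other dim-probe filters and a 1.5-fold threshold.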

Additional observations from a re-analysis of the deposited data

Results flagged for a closer look

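In 3 genes the PPE difference had opposite signs in ORX and sham mice, each beyond its own spot error by at least 1 probe. For Nr1d1 it was -0.25 in ORX mice and 0.85 in sham mice, a difference of -1.09. For Dbp, probe A_55_P2032079 gave -0.27 and 1.68, a difference of -1.96. Its brightest probe gave -0.20 and 1.62, where the value in ORX mice lay within the spot error. For the dim Per1 probe A_55_P2019327 it was 0.59 in ORX mice and -0.46 in sham mice, a difference of 1.05, and by the same arithmetic its ORX difference was 0.64 under PPE and -0.41 under PBS. The bright Per1 probe gave 0.41 and -0.02 for PPE. With normexp the dim probe gave 0.36 in ORX and 0.01 in sham mice. None of these differences was tested, since each group was 1 array. The rule of opposite signs was applied to the members' probes only. Without a share over all genes beside it, nothing is read from the count of 3.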

How the results depend on the processing

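Among the recomputed member counts, medians and gaps, 94 stayed within 1.5 times the count or within the spot error of 0.204 and 6 moved further. Part of that agreement was fixed in advance. All member probes were above background on every array, so the filters for dim probes could not alter member values. Median centring and leaving out scaling could not alter the gap between period genes and Nr1d1. The value table gave nearly the same values as quantile normalization, such as a members' median of 0.483 with either for PPE in sham mice. These settings are therefore not separate checks. Without scaling, the median over the members became -0.24 for PPE among ORX lungs and 1.36 for ORX lungs given PBS, where the medians of all genes were -0.21 and 0.22. When all probes of each gene were averaged, the gap between period genes and Nr1d1 was 0.79 for ORX under PBS, and 1 member (Nr1d1) passed 2-fold for ORX under PPE, with Per2 at 0.89. Tef for ORX under PBS was then 0.96. A 1.5-fold threshold let 4 members through for PPE among sham lungs and 5 for ORX under PPE. Under normexp another Per3 probe was the brightest, which put PPE over PBS at 0.28 among sham lungs. Nr1d1 for ORX under PPE lay between -1.19 and -1.10 under the alternatives run, whereas for ORX under PBS its sign changed. Per1 for ORX under PBS changed sign too, between -0.20 and 0.25. It was -0.01 with quantile normalization and with the value table, so Per1 was then not higher on both ORX arrays. For PPE the sign changed for Per1, Cry2 and Bhlhe41 in sham mice. In ORX mice it did so for Per2, Per3, Cry2, Nr1d2, Tef and Bhlhe41.

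Counts over all genes depended more on the setting. PPE over PBS in sham lungs passed 2-fold for 356 genes as reported, 67 with normexp, 219 with probes above background on all arrays only, 2062 with no filter for dimness, and 1910 at 1.5-fold. Among ORX lungs the same settings gave 225, 26, 120, 1794 and 1233 genes. ORX over sham gave 391, 96, 254, 1976 and 1991 genes with PBS. With PPE it gave 361, 93, 244, 2039 and 1466 genes. Without scaling, 58 genes were higher and 198 lower for PPE among ORX lungs (147 and 78 as reported), and 333 higher and 124 lower for ORX with PBS (124 and 267 as reported). Dim probes, such as those of Bhlhe41, limit what these signals can show. No paired analysis was possible because each group is 1 array.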
